A study of Homo sapiens with 8 samples.

Results

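The genes described here build the contacts between epithelial cells and set up their apical and basal sides: adherens junctions, tight junctions, desmosomes, polarity complexes and a few further epithelial genes. They were taken by name from a list of 41 genes. The list was chosen with earlier results of these data known, so its shares beside those of all genes are descriptive. The arrays measured 39 of the 41, out of 19775 genes in all, each through the probe set with the highest mean over the 8 arrays. By class these were 3 adherens junction, 15 tight junction, 11 desmosome, 6 polarity and 4 other epithelial genes. CTNND1, the p120 catenin gene, was left out because its probe sets also name a readthrough gene, and F11R was not analysed here.

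RNA came from 2 human colorectal adenocarcinoma lines, hybridised to Affymetrix arrays, 1 array per sample and 2 arrays per group. HT29 was measured as spheres, grown in DMEM-F12 with N2 Plus supplement, bFGF and EGF at 10 ng/ml each, and as parental cells, grown in DMEM with 10% fetal bovine serum. SW480 was measured as a stable line labelled Snail and as a stable line carrying the vector control, both in high-glucose DMEM with 10% fetal bovine serum. Sphere growth and the sphere medium always went together, so their effects cannot be told apart. Each construct was represented by 1 stable line; no source used here names the promoter that drives Snail or says whether a line came from 1 clone. Nothing in the labels ties the 2 arrays of a group to separate cultures, so the p-values reflect the scatter between these arrays, which may be technical.

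Adherens junctions hold neighbouring cells together through E-cadherin, whose tail binds the catenins and through them the actin cytoskeleton. Tight junctions lie above them and seal the space between cells with claudins, occludin and tricellulin, which scaffold proteins anchor. Desmosomes rivet the keratin filaments of adjoining cells through desmosomal cadherins, plakophilins, plakoglobin and desmoplakin, and the Crumbs, Par and Lethal giant larvae proteins mark the apical and basolateral domains. Snail is a zinc finger repressor, best known for binding E-box sequences in the E-cadherin promoter during epithelial-mesenchymal transition.

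Values are log2 expression values, so a difference of 1 is a doubling of the deposited signal; a gene passed the test at a Benjamini-Hochberg adjusted p under 0.05 over all 19775 genes in limma. Array medians lay between 5.50 and 5.61. The 2 parental arrays were the least alike pair, with 13 genes at least 2-fold apart in the sphere pair, 200 in the parental pair, 10 in the Snail pair and 19 in the vector pair; no junction or polarity gene was among them, and the widest gap was 0.997 log2, for CLDN1 in the parental pair. The spike-in probe sets of BioC read 1.57 to 1.72 log2 higher on the sphere arrays than on the parental arrays. Control probe sets of 18S ribosomal RNA read 1.11 to 1.87 higher on the arrays labelled Snail than on the vector arrays. Those of M27830, another ribosomal RNA control, read 0.10 to 1.92 higher in the same comparison. The part of any of these in the results was not tested. KRT8, KRT18 and KRT19, keratins of simple epithelia, read 11.79 or more on all 8 arrays, whereas KRT20 and LGALS4, colon differentiation markers, lay below the array medians in SW480. Markers of other cell types were mixed in level. CDH5, VWF and KDR (endothelium), PTPRC (leukocytes) and COL3A1 (fibroblasts) lay below the array medians on all 8 arrays, whereas COL1A1 and DCN (fibroblasts) and CD3E (leukocytes) lay above them on all 8 and PDGFRB and TEK on 7. Between spheres and parental cells CD3E passed the test, and between the SW480 lines TEK and LYZ did; their part in the results was not tested. LYZ, the lysozyme gene of the leukocyte list, read 12.90 and 12.99 in spheres, 12.85 and 12.90 in parental cells, 5.78 and 5.60 on the arrays labelled Snail and 6.15 and 6.15 on the vector arrays.

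SNAI1, which encodes Snail, did not separate the SW480 lines. It read 6.32 and 6.38 on the arrays labelled Snail and 6.36 and 6.34 on the vector arrays (difference 0.00 ± 0.15 log2, adjusted p = 0.992). A single probe set reads this gene, and no source used here places its probes, so a construct that lacks the probed part would go unread. For that reason the comparison is given as that of the line labelled Snail, and each direction in it rests on the label. On the sphere arrays SNAI1 read 6.93 and 7.21, against 5.87 and 6.15 on the parental arrays, a rise of 1.07 ± 0.15 log2 (adjusted p = 0.000318).

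**Figure D1:**
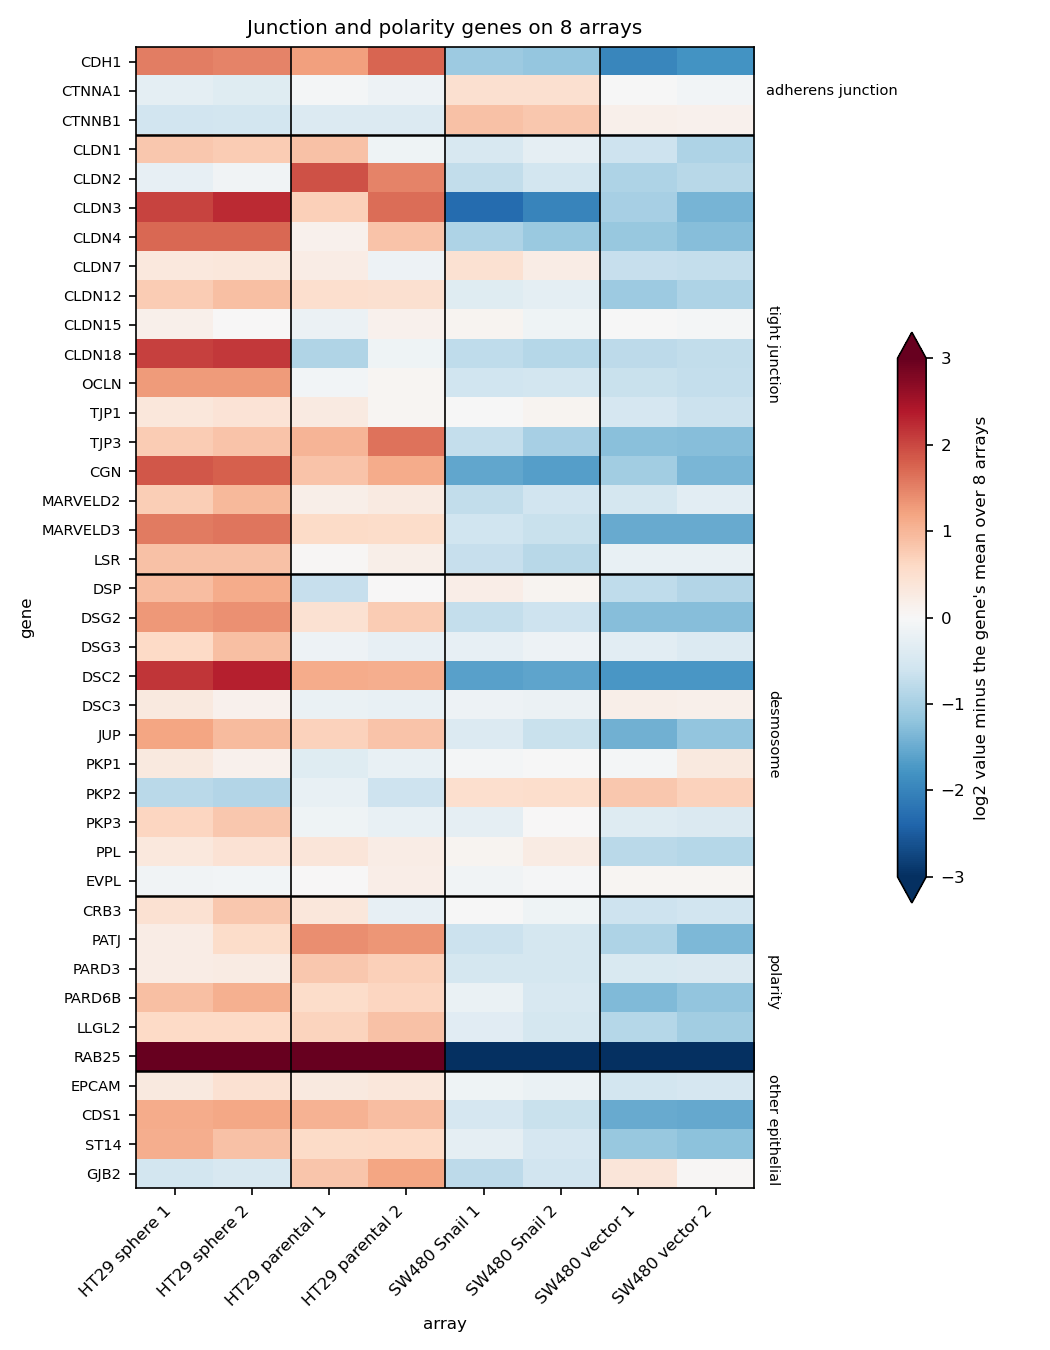
Heat map of the 39 measured genes (rows, by class) on the 8 arrays (columns, 2 per group), coloured by the log2 value minus the gene's mean over the 8 arrays, red above and blue below. HT29 columns are mostly red and SW480 columns mostly blue, RAB25 most of all, while the colours run the other way for CTNNB1 and PKP2.

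In spheres, 8 of 15 tight junction genes and 7 of 11 desmosome genes rose, while E-cadherin and the catenins did not pass the test. Of the 39 genes, 17 rose, 5 fell and 17 did not pass, against 12.4% rising and 19% falling among all genes tested; the median change was 0.34 log2, against 0.04 over all genes. CLDN18, OCLN, DSP and DSC2 rose by 1.13 to 2.61 log2, and CLDN2 and GJB2 fell by 1.89 and 1.54. The falls took in 1 tight junction gene, CLDN2, and no desmosome gene; 1 of the 6 polarity genes rose while 3 fell. None of the 3 adherens junction genes passed. In RNA from whole cultures, fewer cells of a type and less RNA per cell cannot be told apart.

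Among the tight junction genes, CLDN18, a claudin known from stomach and lung epithelium, showed the largest rise. It read 8.71 and 8.78 in spheres and 5.75 and 6.52 in parental cells, a 6.09-fold rise (2.61 ± 0.21, adjusted p = 1.11e-05). Both sphere arrays stood above both parental arrays, although the parental arrays lay apart from each other. OCLN, occludin, a membrane protein of the tight junction strands, read 11.17 and 11.17 in spheres and 9.82 and 9.95 in parental cells (1.28 ± 0.12, adjusted p = 2.79e-05). MARVELD3, of the same protein family, read 8.92 and 8.97 in spheres against 7.93 and 7.92 in parental cells (1.02 ± 0.12, adjusted p = 9.9e-05). MARVELD2, tricellulin, which closes the corners between several cells, read 9.04 and 9.28 in spheres and 8.48 and 8.56 in parental cells (0.64 ± 0.14, adjusted p = 0.00613), so that all 3 genes of this family rose. LSR, which recruits tricellulin to those corners, read 11.71 and 11.70 in spheres and 10.87 and 10.99 in parental cells (0.77 ± 0.12, adjusted p = 0.000746). CGN, the scaffold cingulin, read 9.87 and 9.81 in spheres and 8.87 and 9.13 in parental cells (0.84 ± 0.15, adjusted p = 0.00165).

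The 8 claudins did not move together. CLDN3, CLDN4 and CLDN18 rose, CLDN2 fell, and CLDN1, CLDN7, CLDN12 and CLDN15 did not pass. CLDN2, which forms pores for sodium ions and water, read 5.87 and 6.01 in spheres and 8.04 and 7.62 in parental cells, a 3.71-fold fall with the arrays well apart (-1.89 ± 0.16, adjusted p = 1.44e-05). CLDN4, a sealing claudin, read 12.48 and 12.48 in spheres and 10.89 and 11.62 in parental cells (1.23 ± 0.21, adjusted p = 0.00111). CLDN3, another sealing claudin and its neighbour on chromosome 7, read 11.51 and 11.71 in spheres and 10.19 and 11.15 in parental cells (0.94 ± 0.27, adjusted p = 0.0236). The sphere arrays of both genes agreed closely and lay above the parental arrays, which were farther apart from each other. Both sphere arrays lay above both parental arrays for 32.4% of all genes tested. CLDN1, a barrier claudin, read 9.06 and 9.01 in spheres and 9.13 and 8.13 in parental cells, whose arrays lay on either side of the sphere values (0.40 ± 0.26, adjusted p = 0.291). CLDN7 (0.30), CLDN12 (0.34) and CLDN15 (0.12) lay higher in spheres without passing. TJP1, the scaffold ZO-1, read 11.17 and 11.24 in spheres and 11.09 and 10.88 in parental cells, without passing (0.22 ± 0.13, adjusted p = 0.238). TJP3, the related scaffold ZO-3, lay lower by 0.52 ± 0.19 in spheres and did not pass (adjusted p = 0.0609). Another probe set of each passed for CLDN1 (1.34), TJP1 (0.84) and TJP3 (-0.76), and averaging the probe sets of a gene brought CLDN1, CLDN12, TJP1 and TJP3 past the test.

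Desmosomal genes rose in spheres at several layers of the structure. DSC2, a desmosomal cadherin of simple epithelia, read 10.26 and 10.45 in spheres and 9.24 and 9.21 in parental cells (1.13 ± 0.12, adjusted p = 7.52e-05). DSG2, its partner cadherin, read 11.54 and 11.60 in spheres and 10.68 and 10.98 in parental cells (0.74 ± 0.14, adjusted p = 0.00188). DSP, desmoplakin, which ties the plaque to keratin filaments, read 11.60 and 11.77 in spheres and 9.96 and 10.69 in parental cells (1.36 ± 0.20, adjusted p = 0.000553). All sphere arrays exceeded the parental arrays for these 3 genes, as for 32.4% of all genes tested. PKP3, a plakophilin of the plaque, read 9.88 and 10.03 in spheres against 9.09 and 8.99 in parental cells (0.91 ± 0.14, adjusted p = 0.000562). DSG3 and DSC3, cadherins of stratified epithelia, rose at low signal: DSG3 read 5.48 and 5.79 in spheres and 4.73 and 4.63 in parental cells (0.95 ± 0.14, adjusted p = 0.000435), and DSC3, below the median of every array, read 4.24 and 4.07 in spheres and 3.74 and 3.73 in parental cells (adjusted p = 0.0238).

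The 4 desmosomal cadherins described above lie in 1 cluster on chromosome 18, DSC3 beside DSC2 and DSG3 beside DSG2, with DSC1, DSG1 and DSG4 between the pairs. The 4 rose in spheres, whereas DSC1, DSG1 and DSG4 read 3.16 to 3.84 on the HT29 arrays, below every array median, and did not pass. PKP1 rose by 0.49 ± 0.15 (adjusted p = 0.0282). PKP2 went the other way without passing (-0.41 ± 0.15, adjusted p = 0.0578). JUP, plakoglobin, the armadillo protein shared by desmosomes and adherens junctions, did not pass (0.29 ± 0.15, adjusted p = 0.189), nor did the plakins PPL (0.09) and EVPL (-0.20). The 2 measured keratins of stratified epithelia rose as well, and their part in these results was not tested. KRT5 read 5.58 and 5.47 in spheres and 5.22 and 4.97 in parental cells, and KRT14 read 4.63 and 4.69 in spheres and 4.29 and 4.14 in parental cells.

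E-cadherin itself stayed within the scatter of its arrays. CDH1 read 11.94 and 11.88 in spheres and 11.63 and 12.15 in parental cells, the sphere values lying between the parental ones (0.02 ± 0.17, adjusted p = 0.948). CTNNA1, alpha-catenin, the link to actin, read 11.50 and 11.44 in spheres and 11.75 and 11.66 in parental cells (-0.23 ± 0.12, adjusted p = 0.17). CTNNB1, beta-catenin, which also acts in Wnt signalling, read 9.37 and 9.38 in spheres and 9.52 and 9.52 in parental cells (-0.15 ± 0.12, adjusted p = 0.393). For both catenins the sphere arrays lay below the parental arrays, as for 30.5% of all genes tested, by amounts that did not pass. Another probe set of CTNNB1 read 0.81 higher in spheres (adjusted p = 0.00455).

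Of the polarity genes, 3 fell in spheres. PARD3, the scaffold of the Par complex, read 9.08 and 9.10 in spheres and 9.66 and 9.57 in parental cells (-0.53 ± 0.12, adjusted p = 0.0063). RAB25, a small GTPase of apical recycling endosomes, read 11.22 and 11.22 in spheres and 11.72 and 11.87 in parental cells (-0.57 ± 0.15, adjusted p = 0.0149). PATJ, a scaffold of the Crumbs complex, read 7.79 and 8.12 in spheres and 8.96 and 8.89 in parental cells on its brightest probe set (-0.98 ± 0.17, adjusted p = 0.00137). Its other probe sets disagreed, 2 of them rising by 0.92 (adjusted p = 0.00421) and 0.75 (adjusted p = 0.0023), so its direction depends on the probe set. CRB3, the epithelial Crumbs protein, read 8.25 and 8.61 in spheres and 8.15 and 7.56 in parental cells and rose by a small margin (0.58 ± 0.19, adjusted p = 0.044). LLGL2, a basolateral protein, read 7.71 and 7.71 in spheres and 7.79 and 7.99 in parental cells (-0.18 ± 0.14, adjusted p = 0.365), and PARD6B did not pass either (0.38 ± 0.14, adjusted p = 0.0658).

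Of the other epithelial genes, GJB2, the gap junction protein connexin 26, read 8.25 and 8.33 in spheres and 9.66 and 10.00 in parental cells, a 2.90-fold fall (-1.54 ± 0.16, adjusted p = 6.37e-05). ST14, the membrane protease matriptase, read 10.64 and 10.42 in spheres and 10.11 and 10.13 in parental cells (0.41 ± 0.14, adjusted p = 0.0481). EPCAM, an epithelial adhesion molecule, read 12.56 and 12.73 in spheres and 12.57 and 12.61 in parental cells, overlapping on the arrays (0.06 ± 0.12, adjusted p = 0.772). CDS1, an enzyme of phospholipid synthesis, did not pass (0.16 ± 0.12, adjusted p = 0.36). Among the 22 calls, 15 passed in each of the 8 fits that left out 1 array; CLDN3, MARVELD2, DSC3, PKP1, CRB3, RAB25 and ST14 were lost in at least 1 of them, and ST14 in all 8. Averaging all probe sets of a gene ended the calls of DSC3 (0.18), PKP1 (0.20) and PATJ (0.15).

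Other junction and polarity genes, 53 measured of 57 listed, gave 7 rises, 10 falls and 36 genes not past the test in spheres, at a median of 0.11 log2, with shares called close to those of all genes (12.4% rising and 19% falling). CDH17, a cadherin of intestinal epithelium, read 9.92 and 9.73 in spheres and 5.08 and 5.09 in parental cells, where it lay below the array medians (4.74 ± 0.15, adjusted p = 4.88e-08). The other rises named by the rule were CLDN23 (1.70), CLDN9 (0.77) and the desmosomal membrane protein PERP (0.62). Falls were seen for VCL, the actin linker vinculin (-0.74), the plakophilin PKP4 (-0.85), the DLG-family scaffold DLG3 (-1.19), the Par protein PARD6A (-0.74) and the connexin GJB1 (-0.83).

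**Figure D2:**
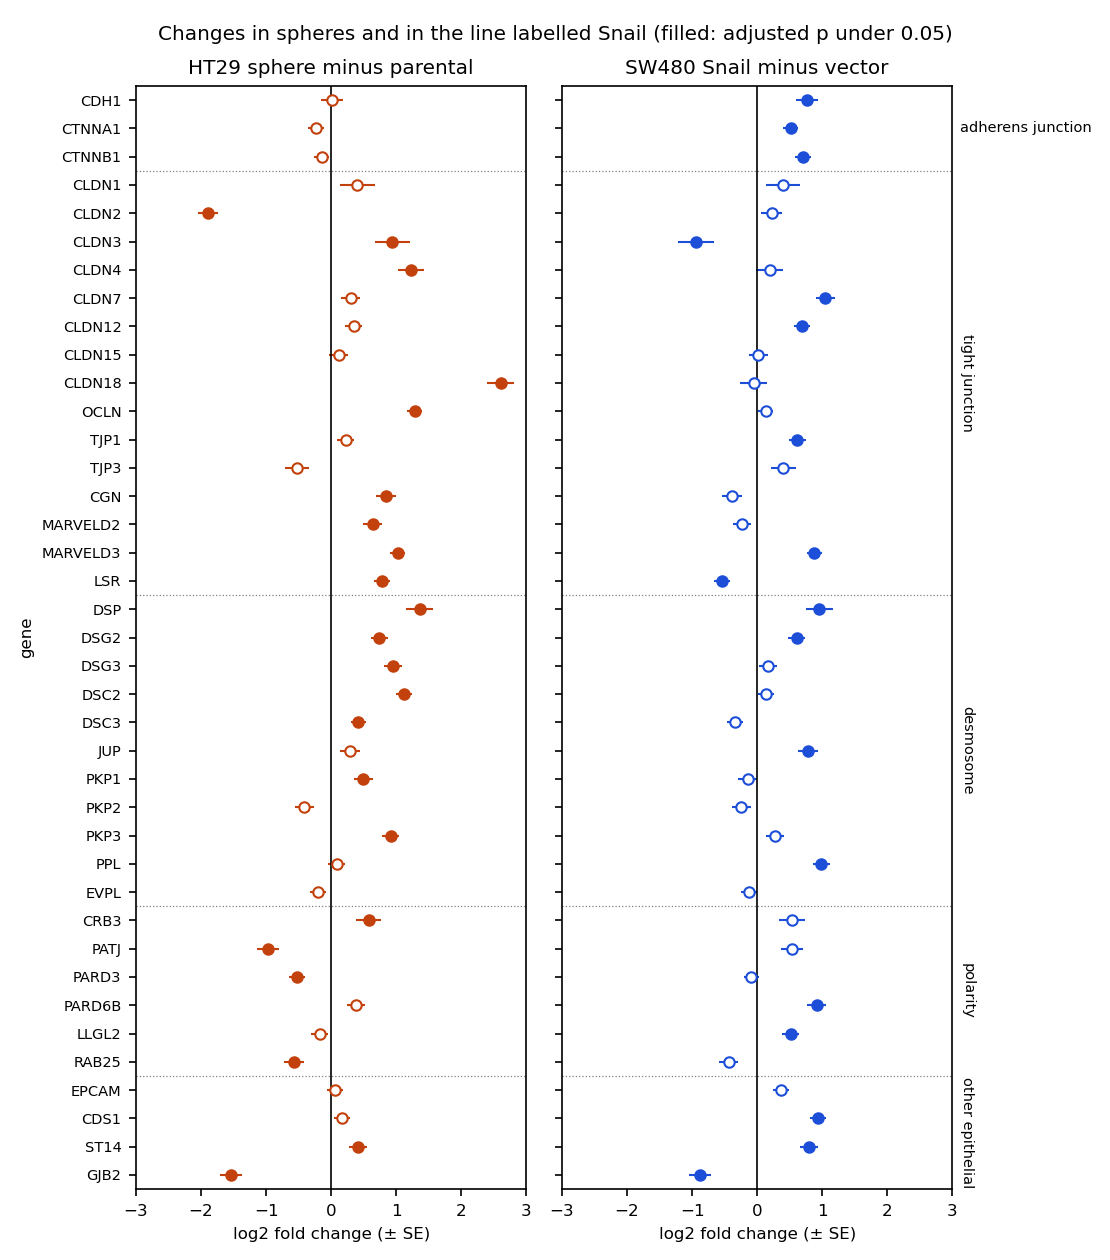
Log2 fold changes (points, with bars of 1 SE) of the 39 genes, by class, in HT29 spheres over parental cells on the left and in the SW480 line labelled Snail over the vector line on the right; filled points passed the test. The adherens junction points are open on the left and filled above 0 on the right, and CLDN18, OCLN and DSC2 are filled only on the left.

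In the SW480 line labelled Snail, E-cadherin, both catenins and 12 other genes were higher than in the vector line, by 1.43 to 2.06-fold. Of the 39 genes, 15 rose, 3 fell and 21 did not pass, against 8.91% rising and 7.34% falling among all genes tested; the median change was 0.36 log2, against 0.01 over all genes. All 3 adherens junction genes rose, as did 4 of 15 tight junction, 4 of 11 desmosome, 2 of 6 polarity and 2 of 4 other epithelial genes. The 3 falls were CLDN3, LSR and GJB2.

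CDH1 read 9.30 and 9.24 on the arrays labelled Snail and 8.43 and 8.60 on the vector arrays, a 1.69-fold rise (0.76 ± 0.17, adjusted p = 0.0132). CTNNB1 read 10.81 and 10.74 on the arrays labelled Snail, against 10.09 and 10.05 on the vector arrays (0.70 ± 0.12, adjusted p = 0.00295). CTNNA1 read 12.27 and 12.27 on the arrays labelled Snail, against 11.79 and 11.72 on the vector arrays (0.52 ± 0.12, adjusted p = 0.0154). The arrays of the lines did not overlap for any of the 3 genes, nor for 60.4% of all genes tested. The other probe set of CDH1 was higher by 0.28 and did not pass. The 2 other probe sets of CTNNB1 were also higher without passing. Of the 4 others of CTNNA1, 2 passed in the same direction.

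CLDN7, a claudin found along the lateral membrane as well as in tight junctions, rose most among the 39 genes. It read 9.67 and 9.45 on the arrays labelled Snail and 8.52 and 8.50 on the vector arrays (1.05 ± 0.15, adjusted p = 0.00131). MARVELD3 read 6.77 and 6.69 on the arrays labelled Snail and 5.85 and 5.86 on the vector arrays (0.88 ± 0.12, adjusted p = 0.00096). CLDN12, a claudin that lacks the usual PDZ-binding tail, read 9.06 and 9.13 on the arrays labelled Snail and 8.34 and 8.49 on the vector arrays (0.69 ± 0.13, adjusted p = 0.00481). TJP1 read 10.82 and 10.91 on the arrays labelled Snail and 10.31 and 10.18 on the vector arrays (0.62 ± 0.13, adjusted p = 0.0103). Each of these 4 tight junction genes stood higher on both arrays labelled Snail than on either vector array, as did 31.2% of all genes tested.

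CLDN3 and LSR went the opposite way. CLDN3 read 7.18 and 7.51 on the arrays labelled Snail and 8.49 and 8.08 on the vector arrays (-0.94 ± 0.27, adjusted p = 0.0413), while its neighbour CLDN4 read 9.84 and 9.63 on the arrays labelled Snail and 9.61 and 9.48 on the vector arrays without passing (0.19 ± 0.21, adjusted p = 0.602). LSR read 10.12 and 10.00 on the arrays labelled Snail and 10.60 and 10.60 on the vector arrays (-0.54 ± 0.12, adjusted p = 0.014). OCLN read 9.30 and 9.36 on the arrays labelled Snail and 9.22 and 9.18 on the vector arrays, a difference that did not pass (0.13 ± 0.12, adjusted p = 0.53). CLDN1 (0.40), CLDN2 (0.22) and TJP3 (0.40) stood higher without passing, and CLDN15 (0.01) and CLDN18 (-0.05) near level. CGN and MARVELD2 lay lower by 0.39 and 0.24 log2 and did not pass.

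Among desmosome genes, 3 plaque genes and 1 cadherin rose. PPL, periplakin, a plakin that binds keratin filaments, read 9.32 and 9.48 on the arrays labelled Snail and 8.45 and 8.39 on the vector arrays (0.98 ± 0.13, adjusted p = 0.000852). DSP read 10.86 and 10.75 on the arrays labelled Snail and 9.90 and 9.80 on the vector arrays (0.96 ± 0.20, adjusted p = 0.0108). JUP read 9.74 and 9.49 on the arrays labelled Snail and 8.70 and 8.96 on the vector arrays (0.78 ± 0.15, adjusted p = 0.00741). DSG2 was the 1 cadherin of 4 that rose, reading 9.51 and 9.60 on the arrays labelled Snail and 8.95 and 8.95 on the vector arrays (0.60 ± 0.14, adjusted p = 0.0133). No plakophilin passed on the probe set used, although the other probe set of PKP2 was lower by 0.90 (adjusted p = 0.0189). EVPL, envoplakin, differed by -0.12 (adjusted p = 0.566). KRT5 read 12.86 and 12.73 on the arrays labelled Snail and 11.94 and 11.86 on the vector arrays and rose by 0.89, while KRT14 stood 0.32 higher without passing; their part in these results was not tested.

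Both polarity genes that rose encode parts of opposing domains. PARD6B, the apical Par6 adaptor, read 8.43 and 8.14 on the arrays labelled Snail and 7.30 and 7.44 on the vector arrays (0.92 ± 0.14, adjusted p = 0.00216). LLGL2, from the basolateral side, read 6.76 and 6.60 on the arrays labelled Snail and 6.26 and 6.07 on the vector arrays (0.51 ± 0.14, adjusted p = 0.028). CRB3 and PATJ stood 0.54 log2 higher each and did not pass, and RAB25 (-0.44) and PARD3 (-0.09) lay lower without passing. Another probe set of PARD3 was higher, by 0.49 (adjusted p = 0.0372).

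CDS1 read 8.49 and 8.33 on the arrays labelled Snail and 7.48 and 7.46 on the vector arrays, a 1.92-fold rise (0.94 ± 0.12, adjusted p = 0.00088). ST14 read 9.28 and 9.03 on the arrays labelled Snail and 8.41 and 8.30 on the vector arrays (0.80 ± 0.14, adjusted p = 0.00369). GJB2 fell here as in spheres, reading 8.03 and 8.23 on the arrays labelled Snail and 9.17 and 8.84 on the vector arrays (-0.88 ± 0.16, adjusted p = 0.0055). EPCAM read 12.15 and 12.07 on the arrays labelled Snail and 11.73 and 11.77 on the vector arrays, apart but not past the test (0.36 ± 0.12, adjusted p = 0.0766).

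Of the 18 calls 7, those of CTNNB1, CLDN7, MARVELD3, PPL, PARD6B, CDS1 and ST14, passed in every fit that left out 1 array. Without the first vector array or either array labelled Snail the call of CDH1 was lost. In fits that lacked 1 of the SW480 arrays the rises numbered 8 to 10 and the falls 0 or 1; averaging all probe sets ended the calls of CDH1 (0.52), CTNNA1 (0.32), MARVELD3 (0.30), DSG2 (0.34) and PARD6B (0.34).

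Of the 53 other junction and polarity genes, 3 rose, 5 fell and 45 did not pass in the line labelled Snail, at a median of 0.03 log2, against 8.91% rising and 7.34% falling among all genes. NECTIN3, a nectin of adherens junctions, read 5.32 and 5.45 on the arrays labelled Snail and 6.91 and 6.83 on the vector arrays (-1.49 ± 0.14, adjusted p = 0.000174). CLDN23 fell by 1.07, CLDN14 by 0.51, the Scribble-complex scaffold DLG1 by 0.58 and PARD6A by 0.46 log2. CLDN14 lay below the median of every array, and NECTIN3 and CLDN23 lay below the medians of both arrays labelled Snail. PERP rose by 0.89 log2.

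Promoter windows are shown for the 4 genes with the lowest adjusted p among those that passed in the line labelled Snail and hold the E-box CAGGTG, the kind of site Snail is known to bind, on either strand (CACCTG being the same site read on the other strand). Both spellings were searched and cannot overlap each other; capitals mark the site. Each window runs from 250 bases before to 50 bases after a RefSeq start of the gene, on the gene's strand, on GRCh38.p14. For CLDN7 and JUP the start used lies inside the gene. The windows lie at chr4:84582877-84583176 on the plus strand for CDS1, chr17:7262429-7262728 on the minus strand for CLDN7, chr13:20192889-20193188 on the minus strand for GJB2 and chr17:41785927-41786226 on the minus strand for JUP.
CDS1: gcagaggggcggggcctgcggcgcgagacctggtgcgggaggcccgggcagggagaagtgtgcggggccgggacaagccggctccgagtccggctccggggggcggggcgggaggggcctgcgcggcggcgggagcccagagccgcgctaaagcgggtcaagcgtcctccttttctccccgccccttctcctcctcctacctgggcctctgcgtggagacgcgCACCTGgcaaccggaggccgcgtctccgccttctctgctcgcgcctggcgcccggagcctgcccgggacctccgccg
CLDN7: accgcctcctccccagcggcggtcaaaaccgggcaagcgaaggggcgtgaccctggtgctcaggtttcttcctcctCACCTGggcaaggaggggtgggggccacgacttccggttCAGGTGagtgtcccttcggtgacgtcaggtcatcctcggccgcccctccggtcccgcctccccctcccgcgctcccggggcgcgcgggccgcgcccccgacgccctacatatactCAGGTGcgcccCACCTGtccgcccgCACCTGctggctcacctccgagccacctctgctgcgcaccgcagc
GJB2: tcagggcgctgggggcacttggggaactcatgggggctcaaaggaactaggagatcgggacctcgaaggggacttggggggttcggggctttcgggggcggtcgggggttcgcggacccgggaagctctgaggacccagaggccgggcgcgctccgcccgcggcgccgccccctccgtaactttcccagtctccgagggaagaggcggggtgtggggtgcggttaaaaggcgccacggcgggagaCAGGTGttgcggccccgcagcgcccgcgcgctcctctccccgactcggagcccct
JUP: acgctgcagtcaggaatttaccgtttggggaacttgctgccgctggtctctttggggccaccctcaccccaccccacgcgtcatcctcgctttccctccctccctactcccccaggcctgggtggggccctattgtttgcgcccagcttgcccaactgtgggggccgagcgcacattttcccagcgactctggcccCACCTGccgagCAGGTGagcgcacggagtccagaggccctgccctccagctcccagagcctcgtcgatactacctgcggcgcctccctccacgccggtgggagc

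In the windows shown, CLDN7, with the largest rise in the line labelled Snail, held 5 sites, 1 of them after the start. JUP held 2, and CDS1 and GJB2 held 1 each. The windows at the outermost starts of CLDN7 and JUP, chr17:7263164-7263463 and chr17:41786662-41786961, held 0. CDS1, CLDN7 and JUP rose in the line labelled Snail and GJB2 fell. The windows matched 28 of the 39 genes; CDH1 is not among them. Of these 28, 15 (53.6%) held the site in at least 1 window, against 24.1% of the 27305 genes in the whole table. By window the shares were 39.0% of 41 and 20.6% of 35116, and the median GC content was 65.7% for these windows and 58.7% for all, so that base composition differed too. Within the 28 genes the site was present in 6 of 9 that rose in the line labelled Snail. It was present in 2 of 3 that fell and 7 of 16 that did not pass. Counted by window, the shares were 35.3% of 17 for genes that rose, 66.7% of 3 for falls and 38.1% of 21 otherwise. A match describes the letters of the window and shows no binding.

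**Figure D3:**
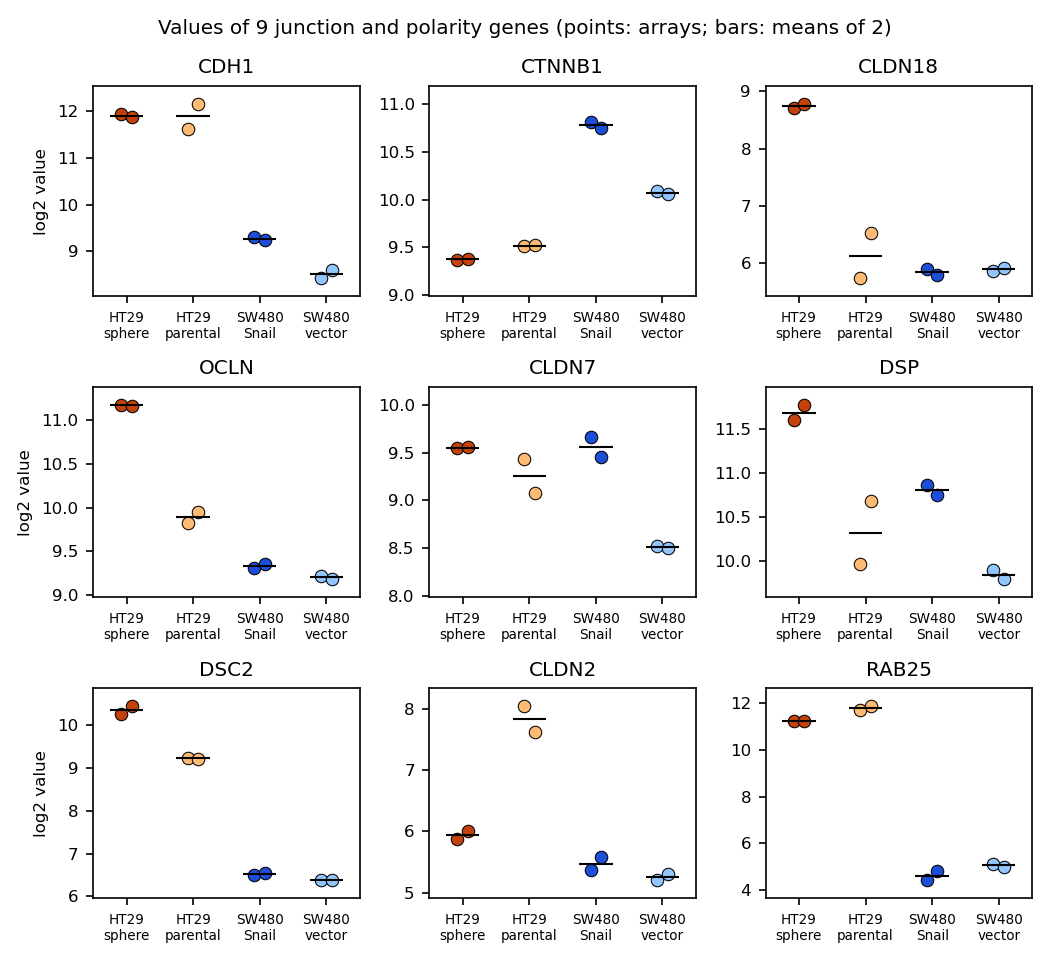
Log2 values of 9 genes on each array (points) with the mean of the 2 arrays (bars), for HT29 spheres, HT29 parental cells, the SW480 line labelled Snail and the SW480 vector line; each panel has its own scale, which does not start at 0. CDH1 separates the lines and overlaps between spheres and parental cells, CLDN18 stands highest in spheres, and DSP is higher in spheres and in the line labelled Snail than in their controls.

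The sphere and Snail comparisons, which have no array in common but share the estimate of spread, had 5 calls of the same direction in common. MARVELD3, DSP, DSG2 and ST14 rose in both, which is 23.5% of the 17 rises in spheres and 26.7% of the 15 in the line labelled Snail. GJB2 fell in both, which is 20% of the 5 falls in spheres and 33.3% of the 3 in the line labelled Snail. Over all genes, 14.4% of the rises in spheres and 20% of those in the line labelled Snail were shared, and for falls 10.5% and 27.2%. These shares depend on how often genes were called in each comparison. Rises took in 17 and 15 of the 39 genes, against 12.4% and 8.91% of all genes. Falls took in 5 and 3 of the 39, against 19% and 7.34%. The overlap therefore cannot be read as closer for these genes than for others. CLDN3 and LSR rose in spheres and fell in the line labelled Snail, and CLDN1, CLDN15, TJP3, PKP2, EVPL and EPCAM passed in neither.

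When the difference between both changes was itself tested, 12 genes moved more upward in spheres and 10 more upward in the line labelled Snail, against 10.6% and 16.9% of all genes tested. The first set held tight junction and desmosome genes: CLDN3, CLDN4, CLDN18, OCLN, CGN, MARVELD2, LSR, DSG3, DSC2, DSC3, PKP1 and PKP3. OCLN differed by 1.15 ± 0.17 log2 (adjusted p = 0.000704) and LSR by 1.31 ± 0.17 (adjusted p = 0.00036). The second set held all 3 adherens junction genes, CDH1, CTNNA1 and CTNNB1, together with CLDN2, CLDN7, TJP3, PPL, PATJ, LLGL2 and CDS1. CTNNB1 differed by -0.85 ± 0.16 (adjusted p = 0.00351) and PPL by -0.90 ± 0.18 (adjusted p = 0.00445). The test passed for CDH1 by a small margin (-0.74 ± 0.24, adjusted p = 0.0426) and was lost for it in 7 of the 8 fits that left out 1 array. Negative differences numbered 6 without either sphere array, the second vector array or the first array labelled Snail. Averaging all probe sets ended the test for all 3 adherens junction genes, at -0.48 for CDH1, -0.38 for CTNNA1 and -0.34 for CTNNB1, and also for DSC3, PKP1, PATJ and CDS1.

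Between the lines, SW480 vector cells had less of most of these transcripts than HT29 parental cells. Of the 39 genes, 28 were lower, 3 higher and 8 not past the test, against 23.5% lower and 22.6% higher among all genes tested; the median difference was -1.12 log2, against 0.07 over all genes. The lower genes comprised 13 of 15 tight junction genes, 4 of 11 desmosome genes, all 6 polarity genes, all 4 other epithelial genes and CDH1. These groups are the controls of the comparisons above, so this comparison is not independent of them. The lines differ in genetic background, in construct and in the medium as described, and these cannot be told apart here.

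CDH1 averaged 8.51 ± 0.12 in SW480 vector cells and 11.89 ± 0.37 in HT29 parental cells (SD, n = 2 each), or 10.4-fold lower (-3.38 ± 0.17, adjusted p = 1.01e-07). CTNNB1 was higher in SW480 vector cells, at 10.07 ± 0.03 against 9.52 ± 0.01 in parental cells (0.55 ± 0.12, adjusted p = 0.00276), and CTNNA1 did not pass (0.05 ± 0.12, adjusted p = 0.742), though 2 of its other probe sets were higher, by 0.60 (adjusted p = 0.00977) and 0.74 (adjusted p = 0.00424). Of 5 Snail, ZEB and TWIST factors measured, 2 were higher in SW480 vector cells and 3 did not pass, against 22.6% higher among all genes. The 2 were ZEB1 and SNAI2, known as repressors of E-cadherin, at 1.63 and 2.55 log2 above parental cells. Their part in the CDH1 difference was not tested.

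RAB25 showed the widest gap of the 39, with SW480 vector values of 5.13 and 5.00 against parental values of 11.72 and 11.87 (-6.73 ± 0.15, adjusted p = 6.62e-10). The SW480 values lay below the array medians, so the 106-fold difference involves a signal near the low end of the scale. PATJ (-2.49), LLGL2 (-1.72), PARD3 (-1.20) and CRB3 (-0.65) were also lower. PARD6B was lower on its brightest probe set (-1.85), but 2 others placed it higher in SW480 vector cells, at 1.36 (adjusted p = 7.25e-05) and 1.65 (adjusted p = 0.000414).

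Tight junction genes lay lower in SW480 vector cells on their brightest probe sets, all 15 in sign, from -0.01 for CLDN15, which did not pass, to -2.59 for TJP3. TJP3 averaged 6.60 ± 0.02 in SW480 vector cells and 9.19 ± 0.43 in parental cells (adjusted p = 1.63e-06). CLDN2 (-2.58), CLDN3 (-2.39), CGN (-2.19) and MARVELD3 (-2.07) followed. CLDN2 read 5.20 and 5.30 on the vector arrays, below their medians. The 2 other probe sets of MARVELD3 were also lower but did not pass. CLDN4 (-1.71), CLDN12 (-1.51), CLDN1 (-1.15), CLDN7 (-0.74), MARVELD2 (-0.64) and LSR (-0.33) were lower as well. TJP1 was lower by 0.74 and OCLN by 0.69, and CLDN18 (-0.23) did not pass. The other probe set of CLDN15 was higher in SW480 vector cells, by 0.52 (adjusted p = 0.0352).

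Desmosome genes split. DSC2 averaged 6.38 ± 0.00 in SW480 vector cells and 9.23 ± 0.02 in parental cells, 7.18-fold lower (adjusted p = 3.83e-08), and JUP (-2.10), DSG2 (-1.88) and PPL (-1.12) were lower too. PKP2, the plakophilin of simple epithelia and heart muscle, averaged 9.80 ± 0.09 in SW480 vector cells and 8.62 ± 0.28 in parental cells and was higher (adjusted p = 7.96e-05). DSC3 was also higher, by 0.38 at low signal, and PKP1, PKP3, DSG3 and EVPL did not pass. DSP did not pass either (-0.48 ± 0.20, adjusted p = 0.0817). Of the other epithelial genes, CDS1 (-2.50), ST14 (-1.77), EPCAM (-0.84) and GJB2 (-0.82) were lower. Leaving out 1 array ended the calls of LSR, DSC3 and CRB3 in some fits, and the other 28 of the 31 passed in all 8.

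**Figure D4:**
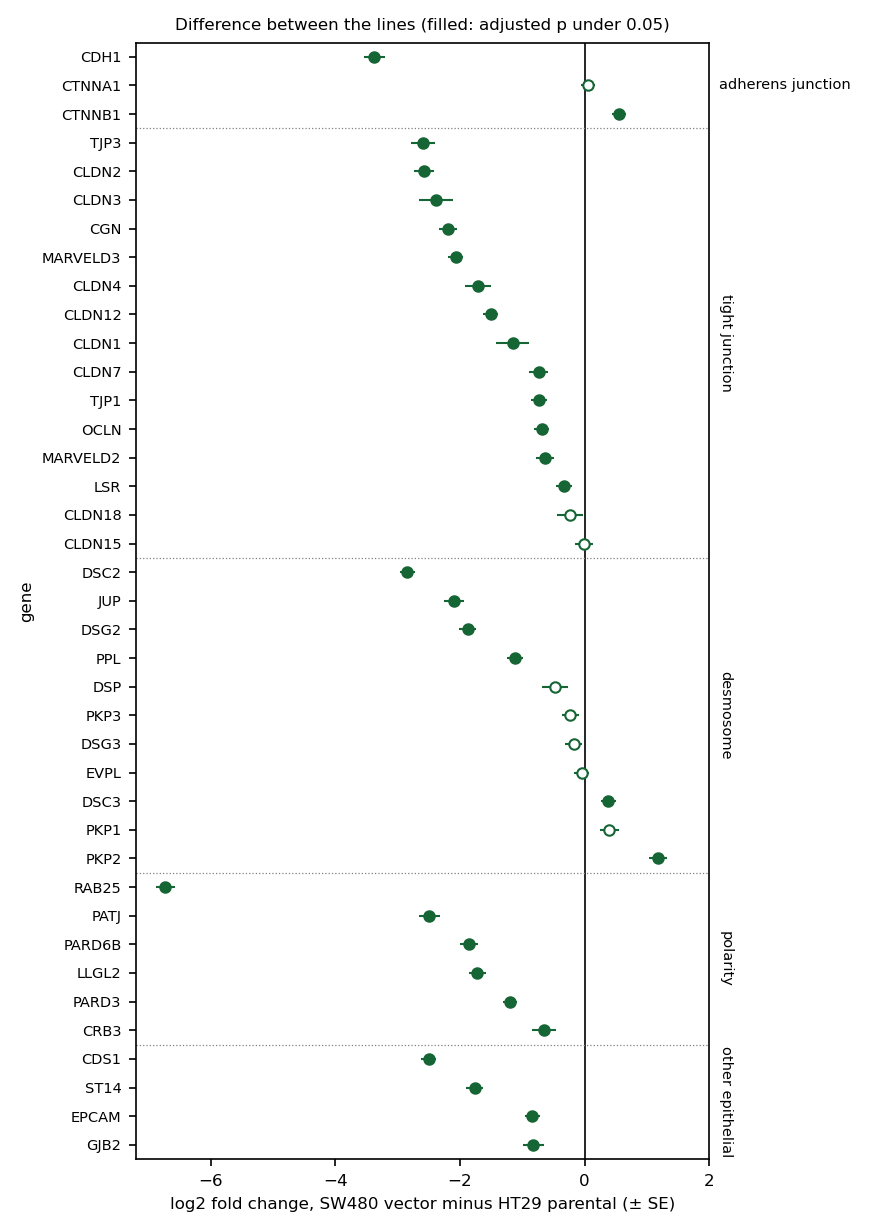
Log2 fold differences (points, with bars of 1 SE) of SW480 vector cells over HT29 parental cells for the 39 genes, ordered within class; filled points passed the test. Nearly all points lie left of 0, RAB25 at -6.73, while CTNNB1, DSC3 and PKP2 are filled to the right.

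Across the 4 groups, the highest mean was found in spheres for 27 genes, in parental cells for 8, in the line labelled Snail for 3 and in the vector line for 1. The lowest mean lay in spheres for 4 genes, in parental cells for 2, in the line labelled Snail for 8 and in the vector line for 25. For 28 genes both HT29 means exceeded both SW480 means, and for 3 genes the reverse held. These orders were not counted over all genes, so they cannot be read as particular to this list. CDH1 had both HT29 means above both SW480 means. The line labelled Snail stood at 9.27 ± 0.04, between the vector line and both HT29 groups, whose means did not differ beyond their spread. CLDN7 did not, since its line labelled Snail averaged 9.56 ± 0.15 and the spheres 9.55 ± 0.01.

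The 53 other junction and polarity genes held 18 that were lower in SW480 vector cells than in parental cells, 7 that were higher and 28 not past the test, at a median of 0.03 log2, against 23.5% lower and 22.6% higher among all genes. CLDN11, a claudin known from myelin and testis, read 10.07 and 10.19 in SW480 vector cells and 4.44 and 4.82 in parental cells (5.50 ± 0.19, adjusted p = 7.31e-09). GJC1, connexin 45, read 8.89 and 8.85 in SW480 vector cells and 4.03 and 4.01 in parental cells (4.85 ± 0.12, adjusted p = 9.3e-10). CGNL1, paracingulin (-3.84), PLEKHA7, which links the zonula adherens to microtubules (-2.78), the nectin-binding AFDN (-1.65), PERP (-1.42), PKP4 (-0.52), DLG3 (-2.11) and the recycling GTPase RAB11A (-1.43) were lower.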

How the data were processed

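The deposited values are log2 expression values for 54675 probe sets on 8 arrays, made by the authors with RMA, per the submitters' processing notes; no source used here gives its version or probe definitions. RMA normalises all arrays to 1 distribution, so changes are relative to it. Values were not normalised again. Probe sets naming 1 gene (41091) were kept, and the brightest on average stood for its gene. The 4 groups were fitted together with limma 3.58.1 in R 4.3.3, on 4 residual and 6.10 prior degrees of freedom, and p-values were adjusted by Benjamini-Hochberg over 19775 genes, two-sided. With 2 arrays against 2, an exact permutation test of 1 gene cannot go below p = 0.333. Alternatives were other probe set rules, a filter on dim genes, renormalisation, array weights, another variance prior, a replicate block, each line alone, and leaving out each array.

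Members and gene lists were chosen with earlier results of these data known. Named genes are, per comparison and class, up to 4 with the lowest adjusted p past the threshold, with CDH1, OCLN, TJP1, DSP, EPCAM and LLGL2 always given, and the 2 lowest per list of other genes; further members are given for completeness. Replicate numbers pair nothing in the labels: same-numbered arrays correlated at -0.06 to 0.06 in their deviations, so the numbers were not used as pairs. Promoter windows are from RefSeq, GRCh38.p14.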

Additional observations from a re-analysis of the deposited data

Results flagged for a closer look

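For 22 of the 39 genes the change in HT29 spheres differed from that in the SW480 line labelled Snail. The test was limma's test of the difference (adjusted p under 0.05), which 27.5% of all genes tested passed. The comparisons concern different lines and different treatments, so the difference is of the responses as measured, and its cause was not tested. Values are the sphere change minus the Snail-line change in log2.

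Of these differences 12 were positive. CLDN18 differed by 2.66 and CLDN3 by 1.88, LSR by 1.31, CGN by 1.23, OCLN by 1.15, CLDN4 by 1.04 and MARVELD2 by 0.87. Among desmosome genes DSC2 differed by 0.98, DSG3 by 0.79, DSC3 by 0.76, PKP1 by 0.64 and PKP3 by 0.63. The other 10 were negative: CLDN2 at -2.12, PATJ at -1.52, TJP3 at -0.93, PPL at -0.90, CTNNB1 at -0.85, CDS1 at -0.77, CTNNA1 at -0.75, CLDN7 at -0.75, CDH1 at -0.74 and LLGL2 at -0.69. Of the 22, 15 passed in every fit that left out 1 array; CDH1, CLDN4, CLDN7, TJP3, PKP1, PKP3 and LLGL2 did not.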

How the results depend on the processing

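With all arrays in the fit, counts stayed within 1.5 times of those reported except for 8 falls in spheres, against 5, with a trended and robust variance prior, 5 falls in the line labelled Snail, against 3, with array weights, and 6 negative differences between the changes, against 10, with the mean of all probe sets. Leaving out 1 array moved some counts further. It gave 8 to 16 rises and 0 to 3 falls in the line labelled Snail, 12 to 16 rises and 4 to 6 falls in spheres, 2 to 3 higher and 26 to 29 lower genes between the lines, and 9 to 12 positive and 6 to 11 negative differences. The calls of 2 genes turned sign with the mean of all probe sets: PATJ in spheres (0.15) and PARD6B between the lines (0.39). The replicate block left 16 rises and 5 falls in spheres, 15 and 3 in the line labelled Snail, and 3 higher and 27 lower genes between the lines; calls lost were those of CRB3 in spheres, LSR between the lines and PKP1 in the difference. In spheres, fitting each line alone ended the calls of DSC3, CRB3 and ST14, array weights those of these 3 and PKP1, and renormalising that of ST14. Between the lines, renormalising ended the calls of LSR, DSC3 and CRB3, and array weights that of LSR. For the difference, renormalising ended those of CDH1, CLDN7, PKP1 and LLGL2. Averaging probe sets also added calls: CLDN1, CLDN12, TJP1 and TJP3 in spheres, PKP2 in the line labelled Snail, CTNNA1 between the lines and PARD3 in the difference. The causes were not tested.

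Other probe sets of called genes gave the opposite sign in these cases. In spheres they were DSC3 (-0.0471), PKP1 (-0.0929) and PATJ (0.92, 0.0782, 0.43 and 0.75). In the line labelled Snail they were CTNNA1 (-0.33), MARVELD3 (-0.10), PARD6B (-0.41), CDS1 (-0.18) and ST14 (-0.0191). Between the lines they were CLDN4 (0.34), TJP1 (0.0253), DSC3 (-0.17 and -0.0887), PATJ (0.36), PARD6B (1.36 and 1.65) and CDS1 (0.42). For the difference between changes they were CTNNA1 (0.34), CTNNB1 (0.46), PKP1 (-0.23), PATJ (0.95, 0.25 and 0.61) and CDS1 (0.34). In spheres 20 of 31 other probe sets passed in the same direction, in the line labelled Snail 6 of 20, and between the lines 23 of 38. The 2 arrays per group limit the precision throughout.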
